A study of Arabidopsis thaliana with 9 samples.

Results

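The genes described here are those of Arabidopsis thaliana seedlings whose RNA was lower after jasmonate and higher in the lhp1 mutant. They were chosen from the measured values. A gene was kept if its mean over the 3 mock lhp1 libraries was at least 3 CPM (counts of a gene per 1000000 counts of its library) and at least 1.5 times the mean of mock WT replicates 1 and 3, if its mean over the 3 JA WT libraries was lower than that mock mean by a factor of at least 1.5, and if neither group overlapped those 2 mock libraries. Of the 33602 genes in the count table, 284 met the rule, and all 284 are among the 20986 genes with enough counts to be tested, of which they are 1.35%. The jasmonate criteria alone were met by 1931 genes and the lhp1 criteria by 2387 genes, of which the 284 are 14.7% and 11.9%. Because the rule used these libraries, the members' differences in the 2 comparisons are given as a description.

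The study profiled polyadenylated RNA of whole seedlings by sequencing, in 3 groups of 3 libraries. Wild-type Col-0 seedlings given mock treatment (mock WT) received ethanol diluted 5000-fold. Col-0 seedlings given jasmonate (JA WT) were exposed to 5 µM of the hormone for 3 h; the labels print the unit as µm. Seedlings of the genotype lhp1 (mock lhp1) received the mock treatment, and the table's column names write the allele as lhp1-3. All were 6 days old and grown in liquid MS medium with sucrose. The labels do not say whether replicates came from separate cultures, so the spread between libraries may be technical.

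Jasmonate is a plant hormone of wounding and defence: it triggers the destruction of JAZ repressor proteins, which frees MYC transcription factors, and it slows growth. LHP1 (LIKE HETEROCHROMATIN PROTEIN 1) is a chromodomain protein of the Polycomb system that binds histone H3 trimethylated by Polycomb repressive complexes and helps to keep developmental genes, floral MADS-box genes among them, silent in seedlings. Plants without it flower early and have small, curled leaves.

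One library, labelled mock WT 2, did not match its group at many of these genes, and the rule did not use it. LTP3, which encodes a lipid transfer protein, had 1.49, 198 and 1.95 CPM in mock WT, 0.937, 0.894 and 1.24 CPM in JA WT and 366, 414 and 414 CPM in mock lhp1, each list in the order of replicates 1 to 3, as in all sentences below. The library labelled mock WT 2 thus lay 49.6% of the way from the other mock libraries to mock lhp1, while the JA WT libraries were all below mock WT 1 and 3. LHP1 itself had 19.9, 14.3 and 18.5 CPM in mock WT, 17.6, 16.8 and 17.9 CPM in JA WT and 11.2, 9.13 and 10.8 CPM in mock lhp1, so that its transcript was lower but not absent in the mutant and the library labelled mock WT 2 again lay between the groups. JAZ10, an early jasmonate response gene, had 3.01, 2.64 and 3.00 CPM in mock WT and 96.5, 96.5 and 92.3 CPM in JA WT, as the treatment label says. VSP2, a vegetative storage protein gene of the jasmonate response, had 0.482, 2.05 and 0.262 CPM in mock WT, 54.3, 43.4 and 48.9 CPM in JA WT and 5.51, 3.21 and 3.93 CPM in mock lhp1. Folds below are therefore taken against the mean of mock WT 1 and 3, as in the rule, and fitted values are given with and without the library labelled mock WT 2. Total counts were 24906304 to 26851011 in mock WT, 22360776 to 31454984 in JA WT and 18081553 to 20614062 in mock lhp1.

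The sequence upstream of 5 members is shown first: 3 genes of cytokinin synthesis, because IPT and CYP735A enzymes act one after the other, and a pair of adjacent genes of the lipid-transfer superfamily with like values. Each is the stretch of 250 bases before the annotated start, read 5′ to 3′ on the gene's own strand from the RefSeq TAIR10.1 genome, with matches to the searched motifs in capitals.
CYP735A2: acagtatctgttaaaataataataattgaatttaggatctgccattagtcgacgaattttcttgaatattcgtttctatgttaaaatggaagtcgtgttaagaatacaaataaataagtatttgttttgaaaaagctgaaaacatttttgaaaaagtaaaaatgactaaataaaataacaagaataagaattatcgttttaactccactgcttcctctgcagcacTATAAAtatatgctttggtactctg
CYP735A1: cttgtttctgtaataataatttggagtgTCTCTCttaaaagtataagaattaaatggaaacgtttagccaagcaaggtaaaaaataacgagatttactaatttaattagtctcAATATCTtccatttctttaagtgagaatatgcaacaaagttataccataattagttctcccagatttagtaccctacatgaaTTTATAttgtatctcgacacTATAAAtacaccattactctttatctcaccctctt
IPT5: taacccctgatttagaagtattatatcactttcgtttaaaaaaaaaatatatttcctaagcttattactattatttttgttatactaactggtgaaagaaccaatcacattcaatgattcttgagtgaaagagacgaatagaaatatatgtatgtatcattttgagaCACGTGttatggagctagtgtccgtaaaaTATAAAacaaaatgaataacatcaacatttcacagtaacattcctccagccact
AT5G46890: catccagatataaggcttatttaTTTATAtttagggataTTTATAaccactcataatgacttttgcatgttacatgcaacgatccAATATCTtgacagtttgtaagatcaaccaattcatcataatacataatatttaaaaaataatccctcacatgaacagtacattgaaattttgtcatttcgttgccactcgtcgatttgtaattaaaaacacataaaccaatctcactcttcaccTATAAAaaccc
AT5G46900: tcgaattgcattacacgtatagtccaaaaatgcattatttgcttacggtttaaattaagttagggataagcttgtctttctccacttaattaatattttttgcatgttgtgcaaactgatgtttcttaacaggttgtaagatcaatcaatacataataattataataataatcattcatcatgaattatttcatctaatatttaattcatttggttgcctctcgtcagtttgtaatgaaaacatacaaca
The CYP735A2 stretch lies at chr1:25065447-25065696 on the minus strand and holds a TATA-box (TATAAA) that begins 25 bases before the start. CYP735A1, at chr5:15397296-15397545 on the minus strand, has TATA-box letters 55 (on the other strand) and 35 bases before the start. It also has a GA repeat (GAGAGA, here on the other strand) at 222 and the core of the evening element (AATATCT) at 137. IPT5, at chr5:6363714-6363963 on the minus strand, holds a G-box (CACGTG), the letters that MYC and other basic helix-loop-helix or bZIP factors are known to bind, at 83 and a TATA-box at 54. AT5G46890 at chr5:19036939-19037188 and AT5G46900 at chr5:19040457-19040706, both on the minus strand, shared 174 of 250 bases in a global alignment (69.6%). The CYP735A genes shared 158 (63.2%), and the adjacent members COR47 and ERD10 shared 151 (60.4%). Unrelated upstream stretches were not aligned, so nothing is read from these shares. AT5G46890 has an evening element core at 165 and TATA-box letters at 227 and 211, both on the other strand, and at 11. None of the searched motifs other than CANNTG, which was not marked, is in the AT5G46900 stretch.

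One member makes a microRNA. MIR163 (AT1G66725), the precursor of a young Brassicaceae microRNA known to target methyltransferase genes, had 4.26, 4.66 and 3.71 CPM in mock WT, 1.17, 1.16 and 1.21 CPM in JA WT and 8.76, 7.74 and 8.34 CPM in mock lhp1. The mature sequence is shown because it names the product, with its seed, bases 2 to 8, in capitals.
miR163: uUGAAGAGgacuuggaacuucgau
It lies on the plus strand at chr1:24884359-24884382 and is 24 bases long. The libraries were made from polyadenylated RNA, so the value is for the precursor and not for the mature microRNA. JA WT was 3.37-fold lower and mock lhp1 2.08-fold higher, and the library labelled mock WT 2 lay above the other mock libraries and below mock lhp1.

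By size, the jasmonate differences ran from 1.5-fold to 9.55-fold lower, with a median of 1.82-fold, and the lhp1 differences from 1.5-fold to 232-fold higher, with a median of 1.82-fold. At least 2-fold lower in JA WT were 105 members and at least 2-fold higher in mock lhp1 were 109, with 49 in both, and 119 were under 2-fold both ways. The mean in mock lhp1 was under 10 CPM for 123 members, from 10 to 100 CPM for 143 and 100 CPM or more for 18. Among the members, 276 are protein coding, 3 are annotated as noncoding RNA, 2 as long noncoding RNA, 2 as transcribed pseudogenes and 1 as a microRNA. The plot of both ratios shows how the members spread along each axis.

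**Figure D1:**
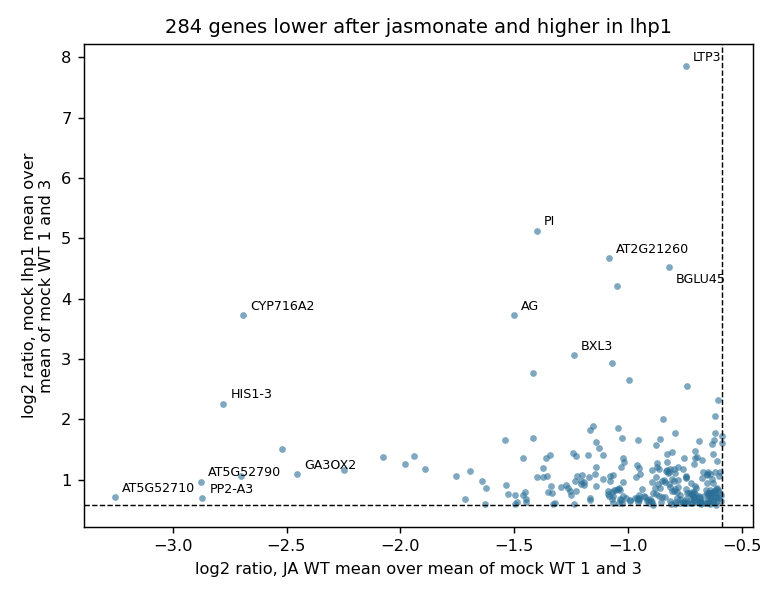
Each point is 1 of the 284 members. The x axis is the log2 ratio of the JA WT mean to the mean of mock WT 1 and 3, the y axis the log2 ratio of the mock lhp1 mean to the same mock mean, and dashed lines mark the 1.5-fold thresholds. LTP3 (232-fold higher in mock lhp1) and AT5G52710 (9.55-fold lower in JA WT) are the ends of the 2 axes.

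In the fit over all genes and all 9 libraries (edgeR's quasi-likelihood test, adjusted p under 0.05), 261 of the 284 were called lower in JA WT, where 7.07% of the 20986 tested genes were called lower. In mock lhp1 170 members were called higher, where 11.1% of tested genes were, and 164 members were called both ways, where 1.57% of tested genes were. Without the library labelled mock WT 2 these counts were 214, 226 and 183, beside 6.29%, 15.6% and 1.48% of 21111 tested genes. The rule used these same libraries, so nothing is read from those shares. The same holds for the calls of each role group below, whose direction the rule set and which stand beside these same shares of all tested genes. Family and list counts below also include calls in the other directions. With all libraries, 15.7% of tested genes were called lower or higher in JA WT, and 25.5% in mock lhp1. Without the library labelled mock WT 2, 1743 of the 21111 tested genes were called higher in JA WT and 3571 lower in mock lhp1. The members' median fitted log2 change was -0.97 in JA WT and 0.56 in mock lhp1, beside 0.00 and 0.00 over all tested genes. Without the library labelled mock WT 2 the members' medians were -0.76 and 0.69, beside -0.003 and 0.01. The rule scales by total counts, and edgeR's TMM factors were 0.911 to 0.919 in JA WT, 0.959 to 1.03 in mock WT and 1.096 to 1.104 in mock lhp1, so total-count scaling makes both differences larger than TMM scaling does. With TMM-scaled values the rule found 134 genes, all of them among the 284.

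Cytokinin genes gave 7 members. With all libraries 6 of them were called lower in JA WT and 4 higher in mock lhp1, where IPT7, CYP735A2 and ATPUP20 did not pass; without the library labelled mock WT 2 the counts were 6 and 7. Under TMM-scaled values 3 of the 7 (IPT7, PUP10 and CYP735A1) met the rule, while IPT5, CYP735A2, PUP4 and ATPUP20 did not. Cytokinins promote cell division, and in Arabidopsis isopentenyltransferases make their precursors, which CYP735A enzymes convert to trans-zeatin forms. IPT5 (AT5G19040), an adenylate isopentenyltransferase, had 18.1, 22.9 and 19.3 CPM in mock WT, 6.91, 6.89 and 6.199 CPM in JA WT and 29.5, 29.8 and 27.5 CPM in mock lhp1. JA WT was 2.81-fold lower and mock lhp1 1.55-fold higher, with no overlap between any of the 3 groups. In the fits its log2 change was -1.47 ± 0.09 (SE) in JA WT and 0.38 ± 0.09 in mock lhp1 with all libraries, and -1.40 ± 0.09 and 0.45 ± 0.09 without the library labelled mock WT 2. IPT7 (AT3G23630), another enzyme of this step, had 1.32, 2.98 and 1.91 CPM in mock WT, 0.586, 1.07 and 0.636 CPM in JA WT and 3.405, 3.48 and 3.202 CPM in mock lhp1, low counts that limit its precision. JA WT was 2.11-fold lower and mock lhp1 2.08-fold higher. CYP735A2 (AT1G67110), a cytokinin trans-hydroxylase, had 19.95, 27.9 and 21.8 CPM in mock WT, 9.14, 7.16 and 6.68 CPM in JA WT and 33.4, 29.8 and 34.1 CPM in mock lhp1. JA WT was 2.72-fold lower and mock lhp1 1.55-fold higher, and the fitted log2 changes were -1.48 ± 0.13 and 0.34 ± 0.12, or -1.35 ± 0.12 and 0.46 ± 0.12 without the library labelled mock WT 2. CYP735A1 (AT5G38450), the other gene for this hydroxylase, had 3.69, 4.58 and 3.296 CPM in mock WT, 1.76, 2.64 and 1.53 CPM in JA WT and 6.97, 7.798 and 7.96 CPM in mock lhp1. In all 4 genes the library labelled mock WT 2 was above the other mock libraries and below every mock lhp1 library.

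Members of the purine permease family, some of which are known to carry cytokinins and their bases across membranes, were part of the same group. PUP4 (AT1G30840) had 7.11, 11.1 and 9.81 CPM in mock WT, 3.59, 4.52 and 4.01 CPM in JA WT and 13.6, 15.7 and 12.95 CPM in mock lhp1. PUP10 (AT4G18210) had 1.37, 1.94 and 2.06 CPM in mock WT, 0.859, 0.358 and 0.731 CPM in JA WT and 3.405, 3.37 and 3.88 CPM in mock lhp1, and here the library labelled mock WT 2 lay between the other mock libraries. ATPUP20 (AT1G47590), annotated as a transcribed pseudogene of this family, had 1.85, 2.31 and 1.16 CPM in mock WT, 0.976, 0.671 and 1.05 CPM in JA WT and 2.59, 3.65 and 3.202 CPM in mock lhp1. For PUP4 JA WT was 2.09-fold lower and mock lhp1 1.66-fold higher.

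Other cytokinin genes were measured beside them. Of 6 tested isopentenyltransferases 2 are members, of 12 tested purine permeases 3, and both tested CYP735A genes. IPT3, an isopentenyltransferase that is not a member, averaged 72.9 CPM in mock WT, 45.4 CPM in JA WT and 109 CPM in mock lhp1. None of the 6 tested cytokinin oxidases, which degrade the hormone, is a member; 1 was called lower in JA WT, 3 higher and 2 lower in mock lhp1. None of the 9 tested type-A response regulators, whose transcripts rise with cytokinin signalling, is a member; 5 were called lower in JA WT, and in mock lhp1 1 was called higher and none lower. Their median log2 change was -0.63 in JA WT and 0.06 in mock lhp1, beside 0.00 over all tested genes in both. Without the library labelled mock WT 2 the type-A regulators again had 5 calls lower in JA WT, with 1 higher and 1 lower in mock lhp1.

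**Figure D2:**
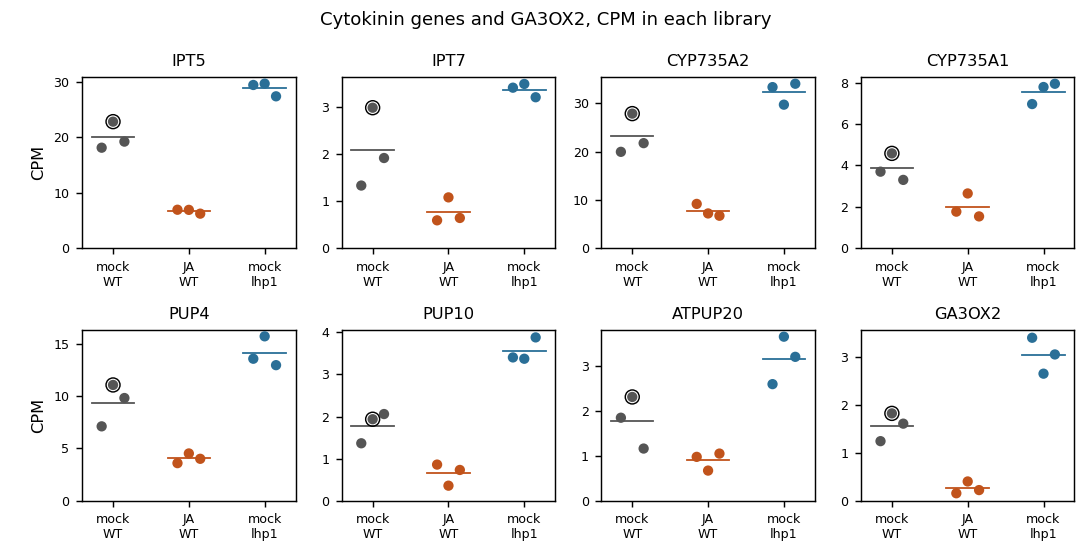
CPM of the 7 cytokinin members and of the gibberellin gene GA3OX2 in each library, with replicates 1 to 3 from left to right and a line at each group mean. The ringed point is the library labelled mock WT 2, and in each panel the JA WT points lie lowest and the mock lhp1 points highest.

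Genes of other hormones gave 8 members: 8 were called lower in JA WT, 6 higher in mock lhp1, and 4 met the rule with TMM-scaled values. Leaving out the library labelled mock WT 2 gave 8 calls lower and 7 higher. GA20OX2 (AT5G51810), a gibberellin oxidase of the steps before the active hormone, had 3.45, 4.21 and 3.45 CPM in mock WT, 2.03, 1.48 and 1.53 CPM in JA WT and 5.84, 6.47 and 6.55 CPM in mock lhp1. GA3OX2 (AT1G80340), the enzyme of the last step to active gibberellin, had 1.24, 1.82 and 1.61 CPM in mock WT, 0.156, 0.402 and 0.223 CPM in JA WT and 3.405, 2.65 and 3.06 CPM in mock lhp1. For GA3OX2 JA WT was 5.48-fold lower and mock lhp1 2.13-fold higher, at low counts. GASA5 (AT3G02885), of a gibberellin-regulated peptide family, had 1.85, 7.19 and 6.18 CPM in mock WT, 0.898, 0.716 and 0.922 CPM in JA WT and 9.35, 7.69 and 9.896 CPM in mock lhp1, with mock WT 1 well below the other mock libraries. JA WT was 4.75-fold lower than the mean of mock WT 1 and 3 and mock lhp1 2.24-fold higher. YUC6 (AT5G25620), a flavin monooxygenase of auxin synthesis, had 5.94, 8.83 and 7.57 CPM in mock WT, 3.83, 4.25 and 4.29 CPM in JA WT and 11.9, 11.3 and 10.1 CPM in mock lhp1. PIN5 (AT5G16530), an auxin carrier of the endoplasmic reticulum, had 2.81, 2.83 and 2.21 CPM in mock WT, 0.586, 1.07 and 0.636 CPM in JA WT and 3.89, 4.92 and 3.299 CPM in mock lhp1, so that the mock WT libraries were close to each other. JA WT was 3.28-fold lower and mock lhp1 1.61-fold higher. The group also holds the auxin-conjugating enzyme family gene GH3.9, the ethylene-forming oxidase gene ACO1 and ERF73, a factor of the low-oxygen response. Of the list of 27 auxin genes YUC6 is the one member: 23 of the 27 were called lower in mock lhp1 and 1 was called lower in JA WT, with list medians of -1.88 and -0.17. Without the library labelled mock WT 2 the auxin list had 24 calls lower in mock lhp1 and 3 lower in JA WT. Of the 18 gibberellin and brassinosteroid genes 1, GA20OX2, is a member, and 6 were called lower in JA WT, 3 higher and 6 lower in mock lhp1. None of the 18 cell wall expansion genes (expansins, xyloglucan-modifying enzymes and others) is a member: 11 were called lower in JA WT, 2 higher and 8 lower in mock lhp1.

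Amino acid exporters of the UMAMIT family gave 8 members, 8 of the 36 tested genes of this family. UMAMIT proteins move amino acids across membranes in either direction, and several are known to unload them from the phloem and in developing seeds. UMAMIT14 (AT2G39510), known for amino acid export in roots, had 11.6, 22.1 and 13.1 CPM in mock WT, 3.83, 4.11 and 4.801 CPM in JA WT and 36.7, 44.6 and 36.4 CPM in mock lhp1. JA WT was 2.91-fold lower and mock lhp1 3.18-fold higher, and the fitted log2 changes were -1.74 ± 0.21 and 1.19 ± 0.18, or -1.44 ± 0.13 and 1.49 ± 0.12 without the library labelled mock WT 2. UMAMIT29 (AT4G01430), an exporter known from developing seeds, had 6.103, 18.4 and 10.6 CPM in mock WT, 3.36, 4.16 and 3.72 CPM in JA WT and 31.9, 30.1 and 31.3 CPM in mock lhp1. JA WT was 2.22-fold lower and mock lhp1 3.73-fold higher. UMAMIT31 (AT4G01440), with 1 annotated gene between it and UMAMIT29 on chromosome 4, had 10.1, 12.9 and 11.8 CPM in mock WT, 3.904, 5.63 and 3.56 CPM in JA WT and 16.5, 15.98 and 17.4 CPM in mock lhp1. Its mock lhp1 libraries lay nearer to mock WT than those of UMAMIT29, at 1.52-fold higher, while JA WT was 2.51-fold lower. UMAMIT11 (AT2G40900), also an exporter of developing seeds, had 13.9, 22.5 and 17.2 CPM in mock WT, 7.53, 10.3 and 11.4 CPM in JA WT and 33.5, 30.6 and 30.7 CPM in mock lhp1. UMAMIT27 (AT1G11450) had 11.6, 15.8 and 12.96 CPM in mock WT, 6.44, 6.31 and 5.56 CPM in JA WT and 20.8, 18.9 and 19.99 CPM in mock lhp1. As in most members, no 2 groups overlapped. UMAMIT28 (AT1G01070), an exporter of developing seeds, had 7.19, 15.2 and 9.48 CPM in mock WT, 4.22, 4.47 and 4.96 CPM in JA WT and 21.2, 16.8 and 19.7 CPM in mock lhp1. UMAMIT genes and SWEET13 together make 9 members. Of these, 9 were called lower in JA WT, 6 higher in mock lhp1, and 4 met the rule with TMM-scaled values. The calls were 9 and 7 without the library labelled mock WT 2. UMAMIT36 and UMAMIT21 completed the set, with JA WT 1.76-fold and 2.24-fold lower.

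The rest of the family varied. Over the 36 tested genes 13 were called lower and 4 higher in JA WT, and 9 were called higher and 3 lower in mock lhp1. Among the 28 that are not members, 5 were called lower in JA WT and 4 higher in mock lhp1. Without the library labelled mock WT 2 the family had 13 calls lower in JA WT and 12 higher in mock lhp1. UMAMIT12, not a member, had 45.4, 42.0 and 29.2 CPM in mock WT, 14.8, 15.6 and 11.2 CPM in JA WT and 55.9, 50.5 and 53.3 CPM in mock lhp1. UMAMIT42, not a member either, went the other way after jasmonate, from 0.321, 0.447 and 0.562 CPM in mock WT to 4.26, 4.20 and 3.75 CPM in JA WT. SWEET13 (AT5G50800), a sugar exporter that also carries gibberellin, had 0.964, 2.05 and 1.198 CPM in mock WT, 0.234, 0.268 and 0.0636 CPM in JA WT and 3.08, 3.15 and 3.06 CPM in mock lhp1. It is 1 member of 11 tested SWEET genes, with JA WT 5.73-fold lower and mock lhp1 2.86-fold higher. Over the 11, 3 were called lower and 3 higher in JA WT, and 3 higher and 2 lower in mock lhp1. SWEET14, not a member, was also called lower in JA WT and higher in mock lhp1. Its mean of 2.44 CPM in mock lhp1 was under the rule's minimum of 3 CPM.

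**Figure D3:**
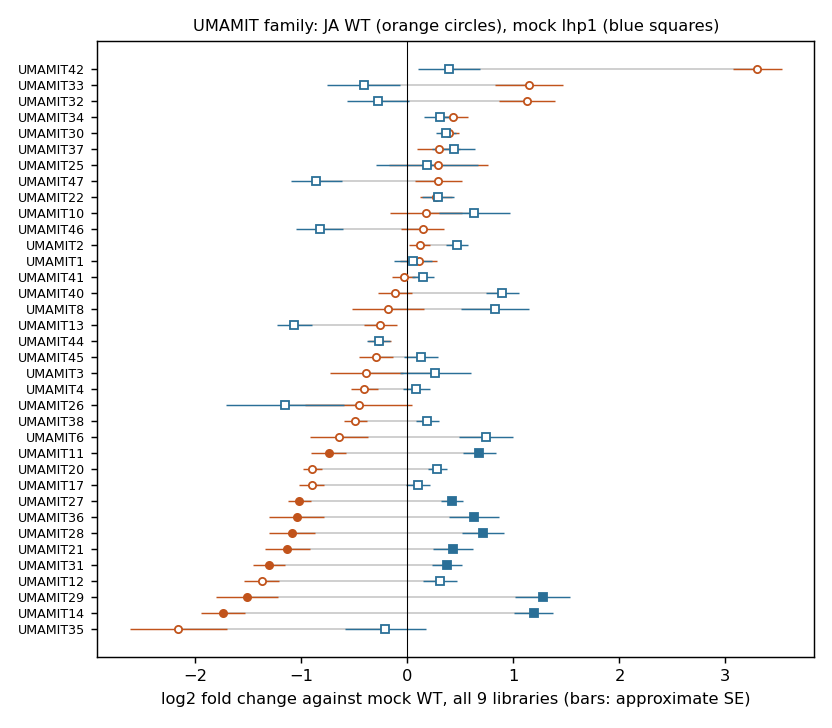
Fitted log2 fold changes against mock WT of the 36 tested UMAMIT genes, ordered by the jasmonate value. Circles are JA WT, squares mock lhp1, filled symbols are the 8 members and bars are approximate standard errors. The fit uses all 9 libraries, and the 8 filled pairs have the circle below 0 and the square above 0.

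Metal and mineral nutrition, which covers transporters as well as enzymes and regulators of metal and phosphate supply, gave 18 members. Of these, 16 were called lower in JA WT, 12 called higher in mock lhp1, and 12 met the rule with TMM-scaled values. The calls were 14 and 17 without the library labelled mock WT 2. HMA2 (AT4G30110), a zinc-exporting ATPase of root vascular tissue, had 9.48, 18.8 and 12.7 CPM in mock WT, 2.54, 3.22 and 2.92 CPM in JA WT and 28.4, 28.8 and 30.4 CPM in mock lhp1. JA WT was 3.84-fold lower and mock lhp1 2.63-fold higher, and the fitted log2 changes were -2.11 ± 0.20 and 0.95 ± 0.17, or -1.85 ± 0.14 and 1.22 ± 0.12 without the library labelled mock WT 2. NAS1 (AT5G04950), a nicotianamine synthase, which makes a metal chelator for iron and zinc transport, had 84.7, 223 and 144 CPM in mock WT, 61.5, 73.3 and 75.3 CPM in JA WT and 323, 317 and 313 CPM in mock lhp1. For NAS1 mock WT 1 lay close to JA WT, and the 3 mock libraries spread more than the other groups. It is 1 member of 4 tested nicotianamine synthases. AT3G07600, of the heavy-metal-associated domain family, had 2.97, 3.98 and 1.798 CPM in mock WT, 0.586, 0.134 and 0.381 CPM in JA WT and 4.11, 5.86 and 4.95 CPM in mock lhp1. JA WT was 6.495-fold lower and mock lhp1 2.09-fold higher. AT5G52710, annotated as a copper transport protein, had 5.22, 5.698 and 3.97 CPM in mock WT, 0.468, 0.402 and 0.572 CPM in JA WT and 6.59, 8.46 and 7.52 CPM in mock lhp1. With JA WT 9.55-fold lower it had the largest jasmonate fold among the members, and mock lhp1 was 1.64-fold higher. AT3G24450, also of the heavy-metal family, had 2.97, 3.58 and 2.397 CPM in mock WT, 1.17, 1.61 and 2.16 CPM in JA WT and 4.16, 4.15 and 4.51 CPM in mock lhp1. HMA2, AT3G07600 and AT3G24450 are the 3 members among 51 tested genes annotated to heavy metal transport or detoxification.

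Potassium, sodium and water genes followed. TIP2;2 (AT4G17340), an aquaporin of the root vacuole, had 139, 186 and 125 CPM in mock WT, 58.6, 75.5 and 84.9 CPM in JA WT and 219, 206 and 221 CPM in mock lhp1. JA WT was 1.804-fold lower and mock lhp1 1.63-fold higher. HKT1 (AT4G10310), a sodium transporter that takes sodium out of the xylem, had 3.57, 8.19 and 6.44 CPM in mock WT, 1.64, 2.33 and 2.83 CPM in JA WT and 11.4, 11.01 and 9.61 CPM in mock lhp1. HAK5 (AT4G13420), a potassium uptake carrier of roots, had 2.41, 7.08 and 4.98 CPM in mock WT, 1.76, 1.34 and 1.65 CPM in JA WT and 8.59, 6.25 and 8.25 CPM in mock lhp1, and here the library labelled mock WT 2 lay inside the mock lhp1 range. KT2/3 (AT4G22200), the potassium channel also called AKT2, active in the phloem, had 8.39, 21.005 and 11.5 CPM in mock WT, 5.08, 7.16 and 7.18 CPM in JA WT and 34.97, 27.98 and 31.3 CPM in mock lhp1. ALMT1 (AT1G08430), a malate channel of root tips, had 3.05, 5.55 and 1.69 CPM in mock WT, 1.601, 1.52 and 1.56 CPM in JA WT and 12.1, 10.9 and 12.4 CPM in mock lhp1, with mock WT 3 barely above JA WT. JA WT was 1.52-fold lower and mock lhp1 4.98-fold higher. The phosphate genes SPX1 (2.45-fold lower, 1.85-fold higher) and PAP17 (1.93-fold lower, 2.28-fold higher), the zinc and iron transporter IRT3, the nitrate transporter NRT1.9 and the metallothionein MT1C are members too. None of the list of 10 nitrate and nitrogen genes is a member; 4 were called higher and 2 lower in JA WT.

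Cell wall genes gave 18 members, of which 18 were called lower in JA WT, 9 called higher in mock lhp1, and 10 met the rule with TMM-scaled values. The calls were 11 and 14 without the library labelled mock WT 2. BXL1 (AT5G49360), a xylosidase and arabinofuranosidase of wall polysaccharides, had 65.9, 205 and 131 CPM in mock WT, 20.5, 40.2 and 55.9 CPM in JA WT and 295, 229 and 263 CPM in mock lhp1. Replicates within mock WT and within JA WT differed from each other by more than 2-fold, and mock WT 1 was nearest to JA WT. BXL3 (AT5G09730), of the same enzyme family, had 0.923, 5.29 and 1.57 CPM in mock WT, 0.3904, 0.626 and 0.572 CPM in JA WT and 10.2, 11.3 and 9.896 CPM in mock lhp1. JA WT was 2.36-fold lower and mock lhp1 8.38-fold higher, and the fitted log2 changes were -2.15 ± 0.56 and 1.87 ± 0.43, or -1.14 ± 0.30 and 2.88 ± 0.23 without the library labelled mock WT 2. Of 4 tested BXL genes 2 are members, and 3 were called lower and 1 higher in JA WT, with 2 called higher in mock lhp1.

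**Figure D4:**
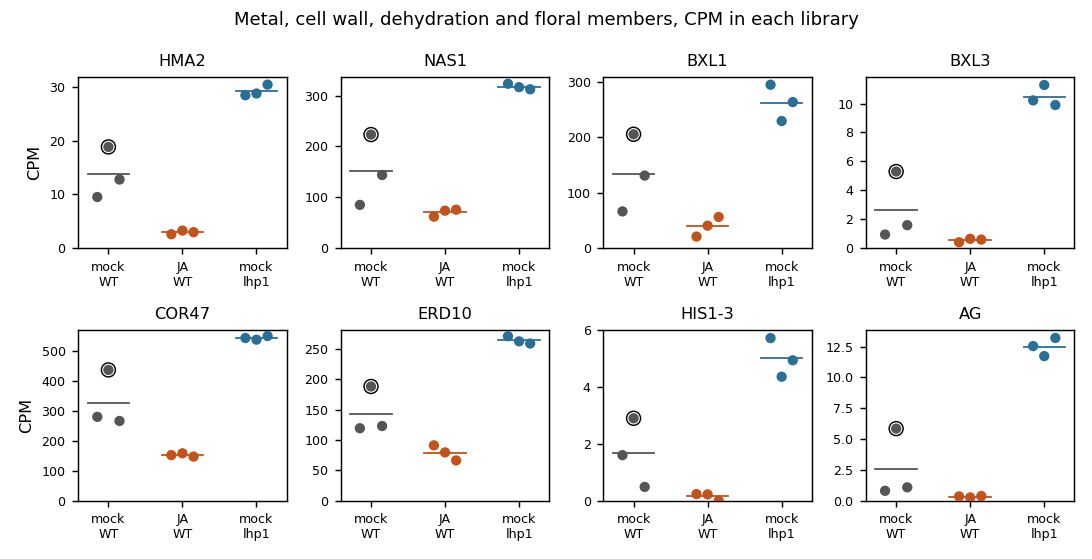
CPM of 8 members with roles in metal transport, the cell wall, dehydration and flowers in each library, with replicates 1 to 3 from left to right and a line at each group mean. The ringed point is the library labelled mock WT 2, which lies above mock WT 1 and 3 in each panel, at 5.29 CPM for BXL3 and 438 CPM for COR47.

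Genes annotated to the pectin methylesterase and inhibitor family were 4 of these members, out of 52 tested. AT2G45220, a pectin methylesterase or inhibitor, had 30.8, 54.5 and 29.7 CPM in mock WT, 17.7, 17.7 and 18.4 CPM in JA WT and 72.5, 84.7 and 76.7 CPM in mock lhp1. AT5G62340, of the same superfamily, had 16.3, 30.2 and 30.2 CPM in mock WT, 8.67, 13.2 and 14.1 CPM in JA WT and 39.7, 33.2 and 35.8 CPM in mock lhp1. AT3G49330, also of the superfamily, had 2.13, 3.54 and 2.32 CPM in mock WT, 1.29, 1.48 and 1.34 CPM in JA WT and 3.297, 3.32 and 4.75 CPM in mock lhp1, with the library labelled mock WT 2 inside the mock lhp1 range. AT5G51490 had 2.17, 4.58 and 2.92 CPM in mock WT, 1.48, 1.65 and 1.49 CPM in JA WT and 4.22, 4.87 and 3.15 CPM in mock lhp1. In AT5G51490 the library labelled mock WT 2 was likewise inside the mock lhp1 range, and the fitted log2 change in mock lhp1 was 0.19 ± 0.25 with that library and 0.50 ± 0.23 without it. AGP24 (AT5G40730), an arabinogalactan protein, had 42.3, 58.1 and 36.9 CPM in mock WT, 23.2, 27.9 and 22.7 CPM in JA WT and 60.7, 69.7 and 66.5 CPM in mock lhp1. Other wall members are the expansins EXPA14 and EXLA1 (3.41-fold higher in mock lhp1), the cellulase CEL5, the xyloglucan enzyme XTH5, UGE1, which makes UDP-galactose, and MUM2, a galactosidase of seed mucilage.

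Genes of wax, suberin and lipid transfer gave 10 members. Of these, 9 were called lower in JA WT, 7 called higher in mock lhp1, and 7 met the rule with TMM-scaled values. The calls were 8 and 8 without the library labelled mock WT 2. LTP3, described above, was 1.68-fold lower in JA WT and 232-fold higher in mock lhp1. Its fitted jasmonate change was -5.84 ± 1.66 with all libraries and -0.63 ± 0.20 without the library labelled mock WT 2, so that this one library sets the fitted size. LTP3 belongs to a multigene family, and how reads were divided between its genes was not tested. KCS2 (AT1G04220), an elongase of very long fatty acids for suberin, had 11.8, 20.9 and 12.996 CPM in mock WT, 6.64, 7.24 and 6.33 CPM in JA WT and 34.7, 39.8 and 36.2 CPM in mock lhp1. JA WT was 1.84-fold lower and mock lhp1 2.98-fold higher. AT5G46890, of the lipid-transfer superfamily, had 9.03, 19.3 and 9.33 CPM in mock WT, 4.45, 5.63 and 4.101 CPM in JA WT and 28.6, 28.7 and 29.3 CPM in mock lhp1. AT5G46900, directly beside it, had 7.59, 19.9 and 10.2 CPM in mock WT, 3.75, 4.56 and 4.64 CPM in JA WT and 33.3, 31.9 and 31.9 CPM in mock lhp1. The values of the pair, whose upstream stretches are printed above, were alike in all groups, and as the genes are neighbours of one superfamily their counts may share reads. AT3G22600, of the same superfamily, had 44.2, 48.8 and 37.1 CPM in mock WT, 24.99, 26.7 and 20.95 CPM in JA WT and 57.02, 67.7 and 65.4 CPM in mock lhp1. AT4G33550 had 7.55, 6.41 and 3.56 CPM in mock WT, 2.81, 2.504 and 2.54 CPM in JA WT and 8.86, 9.62 and 9.31 CPM in mock lhp1, with the library labelled mock WT 2 between the other mock libraries. Of the superfamily 5 of 64 tested genes are members. CYP86B1, a suberin hydroxylase, and CER4, which makes wax alcohols, are also among the members, at 1.71-fold and 1.61-fold lower in JA WT.

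Dehydration genes gave 6 members, of which 6 were called lower in JA WT, 5 higher in mock lhp1, and 2 met the rule with TMM-scaled values. The calls were 6 and 5 without the library labelled mock WT 2 too. The 6 members included an adjacent pair of dehydrins, proteins that protect cells during drying and cold. COR47 (AT1G20440) had 281, 438 and 267 CPM in mock WT, 153, 159 and 148 CPM in JA WT and 545, 539 and 551 CPM in mock lhp1. ERD10 (AT1G20450), next to it on the same strand, had 119, 188 and 123 CPM in mock WT, 91.2, 79.6 and 66.3 CPM in JA WT and 271, 262 and 259 CPM in mock lhp1. COR47 was 1.79-fold lower in JA WT and 1.99-fold higher in mock lhp1, and ERD10 1.53-fold and 2.18-fold. The pair spans 7084409 to 7089606 on chromosome 1. HIS1-3 (AT2G18050), a drought-induced linker histone, had 1.61, 2.905 and 0.487 CPM in mock WT, 0.234, 0.224 and 0 CPM in JA WT and 5.73, 4.37 and 4.95 CPM in mock lhp1. JA WT was 6.86-fold lower and mock lhp1 4.79-fold higher, with mock WT 3 near the JA WT libraries. HB-7 (AT2G46680), a homeodomain factor of the abscisic acid response, had 11.7, 26.9 and 10.7 CPM in mock WT, 7.38, 7.78 and 6.71 CPM in JA WT and 51.6, 40.8 and 47.1 CPM in mock lhp1. The kinase gene SNRK2-8 is also a member, at 2.499-fold lower and 1.53-fold higher. COR47 and ERD10 are the 2 members among 14 tested genes of the abscisic acid, cold and dehydration list, where 6 were called lower and 2 higher in JA WT and 7 higher in mock lhp1.

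Flower, meristem and boundary genes gave 10 members. Of these, 8 were called lower in JA WT, 7 higher in mock lhp1, and 5 met the rule with TMM-scaled values. The calls were 6 and 9 without the library labelled mock WT 2. The 10 members included PI, the member with the lowest mean CPM in mock WT 1 and 3. AG (AT4G18960), the floral factor that specifies stamens and carpels, had 0.803, 5.85 and 1.09 CPM in mock WT, 0.351, 0.268 and 0.381 CPM in JA WT and 12.5, 11.7 and 13.2 CPM in mock lhp1. JA WT was 2.83-fold lower and mock lhp1 13.2-fold higher. PI (AT5G20240), a floral factor for petals and stamens, had 0.321, 5.29 and 0.187 CPM in mock WT, 0.117, 0.0447 and 0.127 CPM in JA WT and 9.08, 8.74 and 8.83 CPM in mock lhp1. Only 8 counts in the 3 JA WT libraries stand against 13 in mock WT 1 and 3, a depth-adjusted ratio of 2.50 with an exact 95% interval of 0.961 to 6.96 that covers counting error only. At this depth a jasmonate difference of PI was not detectable when the library labelled mock WT 2 is left aside. The fitted jasmonate change of AG was -2.78 ± 0.72 with all libraries and -1.37 ± 0.28 without that library, and that of PI -4.07 ± 1.27 and -1.19 ± 0.52. AGL42 (AT5G62165), a MADS-box gene of flowering, had 3.93, 6.59 and 4.76 CPM in mock WT, 3.01, 3.18 and 2.29 CPM in JA WT and 7.78, 7.36 and 7.66 CPM in mock lhp1. TFL1 (AT5G03840), a repressor of floral identity in the shoot tip, had 1.16, 1.97 and 0.899 CPM in mock WT, 0.508, 0.358 and 0.5405 CPM in JA WT and 3.08, 3.82 and 2.67 CPM in mock lhp1. ATH1 (AT4G32980), a homeodomain factor of the shoot meristem, had 17.7, 32.03 and 26.4 CPM in mock WT, 11.5, 12.5 and 13.8 CPM in JA WT and 45.5, 43.9 and 44.7 CPM in mock lhp1. JA WT was 1.75-fold lower and mock lhp1 2.03-fold higher. LSH9 (AT4G18610), of a family named for light-dependent short hypocotyls, had 5.98, 10.1 and 6.89 CPM in mock WT, 2.499, 4.11 and 2.61 CPM in JA WT and 12.3, 14.9 and 13.4 CPM in mock lhp1. LOB, which marks organ boundaries, lay just inside the jasmonate threshold.

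The floral MADS-box list shows what the rule left out. AG, PI and AGL42 are 3 members among 11 tested genes, of which 7 were called higher in mock lhp1, 3 lower in JA WT and none the other way. Without the library labelled mock WT 2, 12 were tested, 10 were called higher in mock lhp1 and 2 lower in JA WT. AP3, the partner of PI, is not a member: it had 0.522, 16.9 and 0.412 CPM in mock WT, 0.351, 0.402 and 0.223 CPM in JA WT and 32.3, 33.1 and 31.8 CPM in mock lhp1. SEP3, not a member either, had 26.7, 97.5 and 26.3 CPM in mock WT, 23.8, 19.7 and 21.1 CPM in JA WT and 172, 174 and 174 CPM in mock lhp1. In both the library labelled mock WT 2 lay between the other mock libraries and mock lhp1, and the jasmonate libraries lay near mock WT 1 and 3. Of 9 tested flowering-time genes none is a member, and of 9 tested meristem and boundary genes 1, ATH1, is.

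Other cytochrome P450 genes gave 9 members. Of these, 9 were called lower in JA WT, 7 higher in mock lhp1, and 8 met the rule with TMM-scaled values. Leaving out the library labelled mock WT 2 gave 7 calls lower and 9 higher. With the CYP735A genes and CYP86B1, 12 of 162 tested P450 genes are members. CYP702A5 (AT4G15393) had 77.2, 103 and 55.99 CPM in mock WT, 21.6, 24.1 and 16.1 CPM in JA WT and 134, 179 and 129 CPM in mock lhp1. JA WT was 3.24-fold lower and mock lhp1 2.21-fold higher. CYP705A19 (AT3G20100) had 32.4, 66.7 and 28.9 CPM in mock WT, 17.7, 16.9 and 18.5 CPM in JA WT and 110.04, 100.5 and 104 CPM in mock lhp1. CYP89A9 (AT3G03470), an enzyme of chlorophyll breakdown products, had 11.7, 41.3 and 11.3 CPM in mock WT, 5.74, 7.33 and 7.598 CPM in JA WT and 76.3, 62.9 and 64.7 CPM in mock lhp1. JA WT was 1.67-fold lower and mock lhp1 5.899-fold higher. CYP71A27 (AT4G20240) had 22.1, 27.6 and 18.5 CPM in mock WT, 6.87, 9.75 and 7.15 CPM in JA WT and 40.97, 44.5 and 41.8 CPM in mock lhp1. As in most members, no 2 groups overlapped. CYP71B12 (AT5G25130) had 0.361, 1.97 and 0.637 CPM in mock WT, 0.312, 0.0894 and 0.159 CPM in JA WT and 4.27, 2.82 and 3.15 CPM in mock lhp1, with mock WT 1 near JA WT replicate 1. CYP71B13 (AT5G25140), directly beside CYP71B12, had 2.45, 4.43 and 3.33 CPM in mock WT, 1.44, 0.984 and 1.27 CPM in JA WT and 7.51, 8.46 and 6.79 CPM in mock lhp1. CYP716A2 (AT5G36140), of a family that oxidises triterpenes, had 0.683, 2.46 and 0.112 CPM in mock WT, 0, 0.0894 and 0.0954 CPM in JA WT and 3.95, 5.97 and 5.87 CPM in mock lhp1. Its 5 counts over the JA WT libraries stand against 20 in mock WT 1 and 3, a ratio of 6.16, and mock WT 3 was low. The exact 95% interval was 2.24 to 21.0 and covers counting error only. The rule chose the gene on these same counts, so nothing is read from that interval. Without the library labelled mock WT 2, the fitted log2 change of CYP716A2 in JA WT was -2.45 ± 0.91 and was not called. Over the whole family 26 of the 162 were called lower and 45 higher in JA WT, and 50 higher and 22 lower in mock lhp1.

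The group of transcription factors holds 13 members and leaves out factors placed in other groups, such as AG, ATH1, HB-7 and ERF73. Of the 13, 13 were called lower in JA WT, 10 higher in mock lhp1, and 9 met the rule with TMM-scaled values. Leaving out the library labelled mock WT 2 gave 9 calls lower and 12 higher. WRKY60 (AT2G25000), a factor of defence signalling, had 11.001, 15.05 and 9.9997 CPM in mock WT, 3.87, 3.67 and 3.34 CPM in JA WT and 19.5, 20.4 and 19.8 CPM in mock lhp1. JA WT was 2.898-fold lower and mock lhp1 1.89-fold higher, with no overlap of any groups, as in most members. WRKY48 (AT5G49520) had 3.17, 5.996 and 4.49 CPM in mock WT, 2.11, 2.64 and 2.35 CPM in JA WT and 9.296, 10.3 and 10.3 CPM in mock lhp1. WRKY23 (AT2G47260), a factor of auxin-dependent root development, had 3.65, 4.88 and 5.09 CPM in mock WT, 3.201, 2.504 and 2.26 CPM in JA WT and 7.19, 7.91 and 7.33 CPM in mock lhp1. They are 3 members of 59 tested WRKY genes. IDD16 (AT1G25250), a zinc finger factor, had 2.41, 4.097 and 2.13 CPM in mock WT, 1.17, 1.48 and 1.11 CPM in JA WT and 6.97, 7.69 and 7.03 CPM in mock lhp1. AT5G51780, a basic helix-loop-helix factor not counted among the 13, with 4 annotated genes between it and GA20OX2, had 10.5, 11.2 and 7.42 CPM in mock WT, 4.57, 5.41 and 5.63 CPM in JA WT and 12.9, 15.98 and 14.6 CPM in mock lhp1. MYB61, NAC1, bZIP3, MYB49 and the clock genes ELF4 and RVE2 are members too, with JA WT 3.12-fold lower for MYB49 and 2.75-fold lower for bZIP3.

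Receptor-like proteins lack the kinase domain of receptor kinases, and 5 of 38 tested are members. With peptide signals and receptor kinases they make 8 members. Of these, 8 were called lower in JA WT, 6 higher in mock lhp1, and 1 met the rule with TMM-scaled values. Leaving out the library labelled mock WT 2 gave 7 calls lower and 8 higher. RLP12 (AT1G71400) had 22.2, 28.8 and 21.8 CPM in mock WT, 14.9, 14.3 and 14.02 CPM in JA WT and 37.5, 42.6 and 40.5 CPM in mock lhp1. RLP27 (AT2G33060) had 1.97, 3.43 and 1.84 CPM in mock WT, 0.625, 0.939 and 0.572 CPM in JA WT and 6.16, 7.13 and 5.19 CPM in mock lhp1. JA WT was 2.67-fold lower and mock lhp1 3.24-fold higher for RLP27. RLP44 (AT3G49750), known to link the cell wall to brassinosteroid signalling, had 5.06, 6.96 and 5.47 CPM in mock WT, 2.46, 2.82 and 3.08 CPM in JA WT and 8.54, 7.74 and 8.54 CPM in mock lhp1. RLP57 (AT5G65830), which lay just inside the jasmonate threshold, had 5.34, 7.26 and 5.88 CPM in mock WT, 3.71, 3.53 and 3.94 CPM in JA WT and 9.24, 8.74 and 8.34 CPM in mock lhp1. RLP47 is the other of these members, at 2.02-fold lower and 2.45-fold higher. RALF1, a peptide that alkalinises the wall, and GSO1, a receptor kinase of the root's diffusion barrier, are members as well.

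Peroxidases of class III, which act on wall phenolics, were 4 of 66 tested. AT2G37130 had 100.3, 181 and 95.5 CPM in mock WT, 38.96, 51.3 and 44.2 CPM in JA WT and 265, 299 and 278 CPM in mock lhp1. JA WT was 2.19-fold lower and mock lhp1 2.87-fold higher. AT4G33420 had 17.9, 34.4 and 24.9 CPM in mock WT, 11.4, 14.4 and 15.2 CPM in JA WT and 49.7, 45.9 and 45.2 CPM in mock lhp1. AT2G18980 had 24.1, 33.6 and 27.5 CPM in mock WT, 11.3, 15.6 and 11.1 CPM in JA WT and 42.5, 36.7 and 39.5 CPM in mock lhp1. All 4 are annotated as peroxidases, and the last, AT5G15180, had 7.15, 9.79 and 6.22 CPM in mock WT, 3.79, 2.82 and 3.15 CPM in JA WT and 10.8, 10.1 and 9.75 CPM in mock lhp1, with the library labelled mock WT 2 inside the mock lhp1 range. In the family 11 were called lower and 5 higher in JA WT, and 24 higher and 4 lower in mock lhp1.

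The members with the highest CPM, which also depends on gene length, include genes outside these groups. MLP34 (AT1G70850), of the major latex protein family, had 485, 623 and 289 CPM in mock WT, 245, 253 and 263 CPM in JA WT and 914, 1047 and 912 CPM in mock lhp1. JA WT was 1.53-fold lower and mock lhp1 2.47-fold higher. AT4G15390, an acyltransferase next to CYP702A5 on the opposite strand, had 289, 312 and 216 CPM in mock WT, 162, 168 and 132 CPM in JA WT and 399.7, 493 and 423 CPM in mock lhp1. AT1G03220, an aspartyl protease, had 117, 243 and 168 CPM in mock WT, 72.3, 94.9 and 93.7 CPM in JA WT and 329.6, 367 and 327 CPM in mock lhp1. JA WT was 1.64-fold lower and mock lhp1 2.398-fold higher, and the library labelled mock WT 2 was the highest mock library.

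Further members among those with the largest fitted changes, or close neighbours of them, are hydrolases and oxidoreductases. AT5G47330, an alpha/beta-hydrolase, had 2.61, 21.8 and 1.84 CPM in mock WT, 1.37, 1.16 and 0.699 CPM in JA WT and 40.9, 41.8 and 40.5 CPM in mock lhp1. AT5G22460, of the same superfamily, had 7.51, 30.2 and 6.93 CPM in mock WT, 3.28, 3.04 and 4.01 CPM in JA WT and 55.6, 53.6 and 56.9 CPM in mock lhp1. BGLU45 (AT1G61810), a glucosidase of monolignol glucosides, had 0.843, 8.31 and 0.674 CPM in mock WT, 0.468, 0.313 and 0.509 CPM in JA WT and 18.8, 17.1 and 16.9 CPM in mock lhp1. In all 3 the library labelled mock WT 2 held several times the CPM of the other mock libraries. AT2G21260, an NAD(P)-linked oxidoreductase, had 0.321, 3.46 and 0.375 CPM in mock WT, 0.0781, 0.224 and 0.191 CPM in JA WT and 7.67, 9.84 and 9.07 CPM in mock lhp1. AT2G29370, of the Rossmann-fold dehydrogenases, had 1.49, 4.36 and 0.936 CPM in mock WT, 0.664, 0.492 and 0.668 CPM in JA WT and 7.404, 7.798 and 7.62 CPM in mock lhp1. TRI (AT2G29330), a tropinone reductase homologue with 3 annotated genes between it and AT2G29370, had 10.6, 13.3 and 6.89 CPM in mock WT, 2.93, 2.55 and 2.99 CPM in JA WT and 12.6, 13.6 and 13.2 CPM in mock lhp1. TRI was 3.09-fold lower in JA WT, but in mock lhp1 its 1.51-fold difference lay just inside the threshold and the library labelled mock WT 2 lay inside the mock lhp1 range. scpl31 (AT1G11080), a serine carboxypeptidase-like protein, had 3.13, 9.83 and 4.79 CPM in mock WT, 0.586, 2.01 and 2.702 CPM in JA WT and 14.6, 11.8 and 15.8 CPM in mock lhp1. AT3G23930, whose annotated name is that of an animal muscle protein, had 1.73, 3.65 and 2.36 CPM in mock WT, 0.859, 1.34 and 1.21 CPM in JA WT and 6.86, 10.6 and 7.28 CPM in mock lhp1. For BGLU45 JA WT was 1.76-fold lower and mock lhp1 23.2-fold higher, and for AT5G47330 2.07-fold and 18.5-fold.

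On the chromosomes, 34 members form 17 pairs with at most 5 annotated genes between them, and 6 of these pairs are directly adjacent, 5 on the same strand. Members made up 1.09% of tested genes on chromosome 3 and 1.63% on chromosome 5, the lowest and highest shares. Adjacent besides the pairs above were EDA11 (AT1G55420) and AT1G55430, both genes of the cysteine- and histidine-rich C1 domain family. EDA11 had 2.17, 3.09 and 2.21 CPM in mock WT, 1.33, 0.894 and 1.02 CPM in JA WT and 4.32, 4.76 and 3.78 CPM in mock lhp1. AT1G55430 had 1.69, 2.05 and 1.84 CPM in mock WT, 0.898, 1.03 and 0.986 CPM in JA WT and 2.49, 3.93 and 3.25 CPM in mock lhp1. Both genes, like most members, had the 3 groups in the same order without overlap. AT5G42825, an uncharacterised protein, had 7.27, 8.68 and 6.18 CPM in mock WT, 2.93, 3.31 and 4.77 CPM in JA WT and 11.998, 10.8 and 11.4 CPM in mock lhp1. AT5G42830, an acyltransferase directly beside it, had 8.43, 8.79 and 5.13 CPM in mock WT, 2.07, 2.73 and 2.26 CPM in JA WT and 11.8, 12.001 and 10.6 CPM in mock lhp1. In both the library labelled mock WT 2 was the highest mock library.

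The other close pairs are listed with their values. PGM (AT1G78050), a phosphoglycerate mutase, had 20.999, 36.2 and 18.2 CPM in mock WT, 13.2, 13.7 and 12.3 CPM in JA WT and 52.8, 63.2 and 62.97 CPM in mock lhp1. TPPB (AT1G78090), a trehalose phosphate phosphatase, had 40.7, 44.6 and 28.95 CPM in mock WT, 25.03, 19.7 and 18.2 CPM in JA WT and 57.7, 65.1 and 56.4 CPM in mock lhp1. There are 5 annotated genes between PGM and TPPB. AT2G39530, a membrane protein of the UPF0497 family near UMAMIT14, had 6.22, 12.8 and 10.9 CPM in mock WT, 4.45, 5.63 and 5.34 CPM in JA WT and 15.5, 13.4 and 15.3 CPM in mock lhp1. AT3G02910, an AIG2-like protein near GASA5, had 63.8, 94.1 and 52.8 CPM in mock WT, 38.7, 39.2 and 35.3 CPM in JA WT and 149.9, 169.8 and 151 CPM in mock lhp1. AT4G17280, annotated as auxin-responsive and near TIP2;2, had 11.3, 12.96 and 8.43 CPM in mock WT, 5.31, 5.77 and 5.91 CPM in JA WT and 17.9, 17.9 and 16.3 CPM in mock lhp1. AT4G18630, near LSH9 and of unknown function, had 6.58, 8.01 and 5.81 CPM in mock WT, 2.19, 3.18 and 2.45 CPM in JA WT and 10.2, 11.1 and 10.1 CPM in mock lhp1. AT4G20840, a berberine-bridge-like oxidase, had 22.6, 29.2 and 22.5 CPM in mock WT, 13.9, 14.6 and 15.01 CPM in JA WT and 37.2, 37.6 and 36.6 CPM in mock lhp1. AT4G20820, of the same family and close by, had 4.78, 8.71 and 7.64 CPM in mock WT, 2.81, 4.56 and 4.01 CPM in JA WT and 12.3, 8.85 and 9.56 CPM in mock lhp1. scpl1 (AT5G36180), a serine carboxypeptidase-like protein near CYP716A2, had 12.8, 13.1 and 8.84 CPM in mock WT, 4.57, 4.47 and 2.83 CPM in JA WT and 17.4, 21.5 and 17.7 CPM in mock lhp1. AT5G40690, near AGP24, had 9.92, 18.03 and 10.3 CPM in mock WT, 5.895, 5.19 and 5.44 CPM in JA WT and 23.7, 27.2 and 22.8 CPM in mock lhp1. In each of these genes the 3 mock lhp1 libraries were above mock WT 1 and 3 and the 3 JA WT libraries below them, as the rule requires.

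The library that the rule did not use was set against mock WT 1 and 3 and mock lhp1, whose values the rule did use. Its place is therefore a description and not an independent measure of the members' mock level. In 258 of the 284 (90.8%) the library labelled mock WT 2 was above both other mock libraries, in 26 between them and in none below, where it was above both in 46.1% of all tested genes. Among genes that met the lhp1 criteria and are not members it was above both in 93.8% of 2103, and among genes that met the jasmonate criteria and are not members in 29.0% of 1647. On a scale from the mean of mock WT 1 and 3 (0%) to the mean of mock lhp1 (100%), its median position over the members was 45.6%, with quartiles of 35.0% and 55.3%. Over the other lhp1-raised genes the median was 46.9%, with quartiles of 37.6% and 56.2%. It lay inside the mock lhp1 range for 18 members, and 266 kept all 3 mock WT libraries between JA WT and mock lhp1, an order that 11.4% of tested genes had. The rule already set this order for mock WT 1 and 3, and only the library labelled mock WT 2 could break it. Nothing is therefore read from the difference between these shares. With all 3 mock WT libraries in the rule 294 genes met it, of which 197 are among the 284. The median coefficient of variation over the members was 24.2% for mock WT, 15.7% for JA WT and 7.46% for mock lhp1, beside 10.2%, 6.98% and 5.54% over tested genes at 3 CPM or more in mock lhp1.

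**Figure D5:**
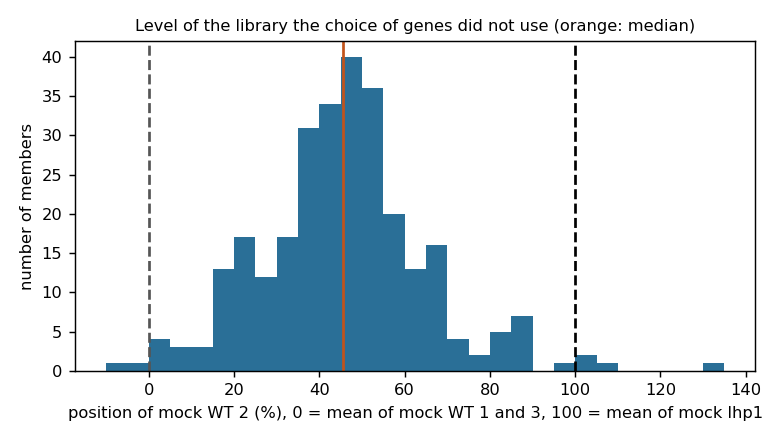
Histogram over the 284 members of where the library labelled mock WT 2 lies, in percent, from the mean of mock WT 1 and 3 (0, dashed) to the mean of mock lhp1 (100, dashed). The orange line is the median, 45.6%, and the 0 to 100% span holds most members.

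Markers of tissues that whole seedlings hold were summed beside the members. Of 7 root tip and endodermis markers, all tested, none was called changed in JA WT (edgeR, adjusted p under 0.05). Their summed CPM was 105 to 133 in mock WT, 94.5 to 98.3 in JA WT and 147 to 154 in mock lhp1. This was the same order as in the members, and it was not particular to this list. Trichome markers summed to 15.4 to 18.1 CPM in mock WT, 13.6 to 14.25 in JA WT and 18.97 to 21.96 in mock lhp1. Carpel and ovule markers summed to 15.5 to 17.3, 11.4 to 14.9 and 18.2 to 19.9 CPM in these groups. The root hair, guard cell, phloem, mesophyll, seed and shoot meristem sums did not show this order without overlap. The 5 root hair markers summed to 68.7 to 112 CPM in mock WT, 73.7 to 82.9 CPM in JA WT and 119 to 140 CPM in mock lhp1, with 1 called higher there. The 3 mesophyll markers, all called lower in mock lhp1, summed to 15918 to 20407 CPM in mock WT, 18691 to 19794 CPM in JA WT and 9771 to 10088 CPM in mock lhp1. None of the root tip and endodermis, root hair or mesophyll markers was at 0 in all libraries. Of the 5 stamen and pollen markers, MS1 and DYT1 were at 0 in all libraries. All 5 together summed to 0.487 to 1.08 CPM in mock WT, 0.156 to 0.402 in JA WT and 1.297 to 2.43 in mock lhp1. That is the members' order too, at low counts, and 1 of the 5 had enough counts to be tested. The part of these tissues in the members' values was not tested. In whole seedlings, fewer cells of a type and less RNA per cell cannot be told apart.

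Just inside the jasmonate threshold lay PGM (1.5001-fold lower), LOB (1.5006-fold) and RLP57 (1.505-fold), and just outside it AT2G31110 (1.4993-fold), MEE23 (1.4966-fold) and AT5G12950 (1.4952-fold). Just inside the lhp1 threshold lay AT5G16900 (1.50045-fold higher), AT5G10410 (1.5034-fold) and TRI (1.5068-fold), and just outside it LAC7 (1.4989-fold), UGT73D1 (1.4978-fold) and DSEL (1.4976-fold).

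Features that the rule did not use are given for members beside all tested genes, without a test. Members had a median of 3 exons against 5, and 21.8% had a single exon against 15.1%. The median transcript length was 1631.5 bases against 1729, and the median protein had 359.5 residues against 388. In the window from 250 bases before to 50 after the start, GC content had a median of 30.3% in members and 32.0% in tested genes. TATA-box letters (TATAAA, both strands) were in 57.4% of members and 51.6% of 20852 tested genes. The G-box (CACGTG) was in 5.28% against 8.51%, and the core of the abscisic acid response element (ACGTGG), which can overlap it, in 7.04% against 10.7%. The telo-box core (AAACCCT) was in 5.63% against 9.37%, the DRE core (CCGAC) in 12.0% against 15.8%, the GCC-box (GCCGCC) in 0.352% against 2.66% and GGGCCC in none of 284 against 2.36%. The GA repeat (GAGAGA) was in 28.2% against 28.8%, the W-box core (TTGACC) in 12.7% against 14.3% and the evening element core in 12.3% against 11.6%. The E-box (CANNTG), which contains the G-box, was in 63.0% against 62.4%. A match is a run of letters and not a shown binding site.

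Some counts are less certain than their depth. For 56 members another annotated gene overlaps on the opposite strand, and no source used here states whether the counting kept strand. Neighbouring genes of one family, such as AT5G46890 and AT5G46900 or CYP71B12 and CYP71B13, may share reads; the likeness of their transcripts was not measured.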

How the data were processed

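RNA was measured in 9 libraries, 3 per group. The deposited table holds raw counts per gene; per the submitters' processing notes, TopHat, HTSeq and edgeR were used with the genome build TAIR10, and versions, settings and strandedness are not given in the sources used here. CPM were computed from these counts by the total of each column; 3 columns that match no labelled sample were not used. Coordinates, names and sequences come from the RefSeq TAIR10.1 annotation, to which all 284 members matched.

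The test over all genes was edgeR's (version 4.0.16, R 4.3.3; TMM factors, filterByExpr, quasi-likelihood F-test, two-sided, Benjamini-Hochberg adjustment over the 20986 genes tested, threshold 0.05), with a mean per group over the 9 libraries; standard errors are approximate, the log2 change divided by the root of F. The script was tested on simulated data. DESeq2 1.42.0 and limma-voom 3.58.1 were alternatives. The members, gene lists and role groups were chosen with earlier results of these data known. Members named with values in every library are the 24 with the largest smaller change of the 2 fitted comparisons, the 8 with the highest CPM in mock lhp1, members of the gene lists, of close pairs or of shared families; others were chosen after their values were seen. Replicate numbers are not said to mark a shared batch. Motifs were searched on both strands. Reads without molecular identifiers are not independent molecules, so intervals cover counting error only. One upstream sequence and the calls of one marker list in mock lhp1 are not reported here.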

Additional observations from a re-analysis of the deposited data

How the results depend on the processing

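Leaving out 1 library in turn gave 208 to 266 members called lower in JA WT (261 with all), 86 to 226 called higher in mock lhp1 (170 with all) and 79 to 183 called both ways (164 with all). The count higher in mock lhp1 was 108 without mock WT 3, and 105, 86 and 105 without mock lhp1 replicates 1, 2 and 3; the count both ways was 106, 98, 79 and 97. Fewer samples were in those fits. Over all genes, calls lower in JA WT numbered 1483, 3034 with total-count scaling, 934 with the compared groups only and 1042 to 1998 with 1 library left out; calls higher in mock lhp1 numbered 2321, 5045 with total-count scaling and 1108 to 3295 with 1 library left out. The cause was not tested. The rule found 895 genes at the lower fold threshold tried, 49 at a fold of 2, 134 with TMM-scaled CPM, 161 at a minimum of 10 CPM, 373 at 1 CPM, and 275 to 315 with 1 JA WT or mock lhp1 library left out. The one named gene whose direction turned was TRI, with a log2 change in mock lhp1 of -0.000391 without mock WT replicate 3 and of 0.416498 without the library labelled mock WT 2. With the replicate number as a block, 257 members were called lower in JA WT, 189 higher in mock lhp1 and 180 both ways, and 1545 and 2628 of all genes; the numbers share no stated batch, and same-numbered libraries of different groups deviated with correlations of -0.077 to 0.215. Members with few counts, such as PI and CYP716A2, are limited by depth.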
